A study of Rattus norvegicus with 17 samples.

Results

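The genes of the mitochondrial respiratory chain and of ATP synthase were followed across 17 expression arrays of rat tumour tissue. Members were the genes whose only annotated symbol names a subunit family of complexes I to V or cytochrome c (Ndufa, Ndufb, Ndufc, Ndufs, Ndufv, Sdha to Sdhd, Uqcr, Cyc1, Cycs, Cox4 to Cox8 and Atp5). If 1 symbol had more than 1 probe set, the probe set of highest mean stood for it. This gave 81 of 14506 measured genes. Of the 81, 74 are subunits: 32 of complex I, 4 of complex II, 7 of complex III, cytochrome c (Cycs), 15 of complex IV and 15 of complex V. The 7 others are Atp5if1, the inhibitor of ATP synthase; Cox7a2l, a supercomplex assembly factor; the complex I assembly factors Ndufaf1, Ndufaf3 and Ndufaf4; and the pseudogene symbols Cox6c-ps1 and Ndufs6-ps1. Ndufa4l2, Cyc1, Cox7a1 and the mitochondrially encoded subunits were not analysed here.

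The respiratory chain passes electrons from NADH (complex I) and succinate (complex II) through ubiquinone to complex III, cytochrome c and complex IV, where oxygen is reduced. Complexes I, III and IV pump protons across the inner membrane, and complex V, ATP synthase, uses the gradient to make ATP. Inherited loss of a complex II (succinate dehydrogenase) subunit causes pheochromocytoma and paraganglioma in humans. mTOR signalling is known to promote the transcription and the translation of nuclear genes for mitochondrial proteins.

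All rats were 8 months old, on a mixed Sprague-Dawley white eye/Wistar-Kyoto background, and mutant for p27Kip1 (written Cdknb1 in the labels), a cell cycle inhibitor. The sample labels give the mutation as homozygous, whereas the text on the study design says heterozygous. Controls received 20 mg/kg PEG (7 arrays; 5 females and 2 males). Treated rats received NVP-BEZ235, a dual inhibitor of PI3K and mTOR, at 20 mg/kg (6 arrays; 4 females and 2 males) or at 30 mg/kg (4 arrays; 3 females and 1 male). Length of treatment is not given in the sources used here. The titles number the controls 1 to 7, the 30 mg/kg samples 1 to 4 and the 20 mg/kg samples 5 to 10. Controls 1 to 4 and the 30 mg/kg samples are therefore called the lower-numbered set, and controls 5 to 7 and the 20 mg/kg samples the higher-numbered set. No label says what the numbers stand for, so the sets are described by their numbers only. Controls 1 to 4 were all female, whereas controls 6 and 7 were male, and sex was a term of every fit. No label says that the samples came from separate animals, and the p-values then reflect only how far these samples spread, which may be technical.

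The sample labels call the tissue pituitary adenoma, while the title of the series names pheochromocytoma, which arises from the chromaffin cells of the adrenal medulla. Mean log2 values of 7 pituitary hormone genes lay between 4.06 and 5.06 on every array. Those of 8 chromaffin genes lay between 9.72 and 11.28, and those of 9 adrenal cortex genes between 10.46 and 11.82. The measured values thus go against the pituitary label, and the material is called tumour tissue below. All values are deposited log2 RMA signals, which ran from 2.22 to 13.71. The standard deviation over all probe sets was 2.04 to 2.11 on arrays of the lower-numbered set and 2.14 to 2.21 on those of the higher-numbered set. On every array the members lay mostly in the upper part of this distribution: 75 of 81 had a mean above the upper quartile of each array.

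The promoters of several members are shown because such genes are textbook targets of NRF1, GABP (also called NRF2) and YY1, and because many of the members differed together between samples. RefSeq promoters on GRCr8, from 250 bases before to 50 after the start, were matched for 71 of the 81 members. Core letters of each motif were searched on both strands. NRF1 letters, GCATGCG, were in 13 of 71 members (18.3%), against 3.5% of 27457 promoters of the same length and 4.1% of 18999 promoters of protein-coding genes. GABP letters, CCGGAAG, were in 21 (29.6%), against 9.2% and 11.2%. YY1 letters, ATGGCGG, were in 14 (19.7%), against 5.2% and 6.4%. At least 1 of the 3 was in 35 members (49.3%), against 16.0% and 19.2%, and no motif holds another. By complex, NRF1 letters were in 5 of 14 promoters of complex V and 2 of 30 of complex I, and YY1 letters in 9 of 30 of complex I and 0 of 12 of complex IV. A match describes the letters and is no shown site. The 180 bases upstream of the start follow for 6 members, 5′ to 3′ on the strand of the gene, with matches in capitals. Ndufb7, Cycs, Atp5pf and Cox5b differed between the control samples described below, Cox8a carries a motif and did not pass there, and Cox7a2l is the member that was higher after treatment. Not every called member carries a motif. Of 12 members called between the control samples and matched to a promoter, 8 had one (66.7%), as did 27 of 59 not called (45.8%). That difference was not tested.
Ndufb7 (GABP; chr19:41477292-41477471, minus strand): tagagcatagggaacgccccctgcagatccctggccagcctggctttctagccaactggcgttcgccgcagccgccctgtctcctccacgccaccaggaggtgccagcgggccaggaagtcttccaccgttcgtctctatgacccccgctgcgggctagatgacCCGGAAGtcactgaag
Cycs (NRF1, on both strands; chr4:80984768-80984947, minus strand): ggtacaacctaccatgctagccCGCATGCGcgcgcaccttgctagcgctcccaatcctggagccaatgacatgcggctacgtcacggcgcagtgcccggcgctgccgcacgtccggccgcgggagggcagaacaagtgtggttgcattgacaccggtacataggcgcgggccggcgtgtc
Atp5pf (NRF1, YY1 and GABP; chr11:37375102-37375281, minus strand): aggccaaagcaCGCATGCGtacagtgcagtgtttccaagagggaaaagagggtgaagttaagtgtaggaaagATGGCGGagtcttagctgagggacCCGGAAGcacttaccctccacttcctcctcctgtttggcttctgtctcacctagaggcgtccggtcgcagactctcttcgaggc
Cox5b (GABP; chr9:46417657-46417836, plus strand): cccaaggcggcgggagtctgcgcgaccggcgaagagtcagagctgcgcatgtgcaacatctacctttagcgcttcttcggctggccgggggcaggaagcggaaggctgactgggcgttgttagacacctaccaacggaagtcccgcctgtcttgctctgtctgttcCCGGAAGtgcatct
Cox8a (GABP on the opposite strand, at both places; chr1:213833624-213833803, minus strand): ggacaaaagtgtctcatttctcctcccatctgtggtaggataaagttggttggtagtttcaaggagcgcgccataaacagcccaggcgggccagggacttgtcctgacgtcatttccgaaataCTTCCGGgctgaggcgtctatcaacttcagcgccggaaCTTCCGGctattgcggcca
Cox7a2l (no match; chr6:16936394-16936573, plus strand): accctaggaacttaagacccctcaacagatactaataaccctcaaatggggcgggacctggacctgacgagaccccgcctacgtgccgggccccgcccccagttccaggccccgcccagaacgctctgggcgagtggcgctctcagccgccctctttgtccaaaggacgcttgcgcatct

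The first comparison was of each dose with all 7 controls. At 30 mg/kg, 8 of the 81 members passed the threshold, 1 higher and 7 lower, with 4 of the 7 in complex I, 1 in complex IV and 2 in complex V. The share of 9.88% stood beside 8.55% of all genes tested (3.66% higher and 4.89% lower), and is near that background. The median change was −0.30 over the members and 0.01 over all genes. Complex I had a median of −0.36 with 30 of 32 members lower, complex III −0.25 with 7 of 7 lower, and complex V −0.25 with 13 of 15 lower. Adjusted p-values are from limma with Benjamini-Hochberg adjustment over all 14506 genes and a threshold of 0.05, and changes are log2 differences with their standard errors.

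Within complex I, Ndufs3, a core subunit of the peripheral arm, fell by 0.85 ± 0.21 on the log2 scale at 30 mg/kg (adjusted p = 0.019), and Ndufs8, a core iron-sulfur subunit, by 0.65 ± 0.18 (adjusted p = 0.032). The accessory subunits Ndufa1 and Ndufb4 fell by 0.61 ± 0.17 (adjusted p = 0.034) and 0.55 ± 0.13 (adjusted p = 0.019). Cox7b of complex IV fell by 0.44 ± 0.12 (adjusted p = 0.032). In ATP synthase, Atp5mk, a small subunit of the membrane part, fell by 0.88 ± 0.21 (adjusted p = 0.018) and Atp5pd of the peripheral stalk by 0.57 ± 0.15 (adjusted p = 0.026). In a limma fit of single probe sets, a further probe set of Atp5pd differed by −0.4 ± 0.18 and did not pass (adjusted p = 0.2). Further probe sets of Atp5mk and Ndufb4 passed, at −0.88 and −0.54. The F1 subunits that carry the catalytic sites had small differences, −0.12 ± 0.12 for Atp5f1a and −0.08 ± 0.15 for Atp5f1b. Cox7a2l, which joins complexes III and IV in supercomplexes, was the member that rose, by 0.58 ± 0.11 (adjusted p = 0.0052). Against controls 1 to 4 alone, 0 of the 7 lower members passed: the difference was −0.52 for Ndufs3 (adjusted p = 0.14), −0.38 for Ndufs8 (0.22), −0.31 for Ndufa1 (0.23), −0.52 for Ndufb4 (0.084), −0.34 for Cox7b (0.18), −0.56 for Atp5mk (0.13) and −0.35 for Atp5pd (0.18). Without replicate 4 of the 30 mg/kg group, the only male of that group, 1 member was called in place of 8, and among females alone 0 were. Without control 5, 6 or 7 in turn, 5 were called, and without control 2, 14.

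At 20 mg/kg, 0 of the 81 members passed against all controls in limma, where 1.18% of all genes did. At an unadjusted p under 0.05 there were 10 members, 5 higher and 5 lower. The median change was 0.03 over the members, with 44 higher and 37 lower. Complex I had a median of 0.12, and complexes II to V lay between −0.05 and −0.02.

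The lower and the higher set of controls differed from each other in many of these genes. In controls 5 to 7, 17 members were higher than in controls 1 to 4 and 0 were lower at the threshold, a share of 21.0% beside 3.61% of all genes tested (2.68% higher). The median difference was 0.49 over the members and −0.03 over all genes, and 73 of 81 were higher. In 29 members every value of controls 5 to 7 lay above every value of controls 1 to 4, against 10.9% of all genes, and in 1, the testis isoform Cox8c, every value lay below, against 10.5%. Over the 1031 genes with a mean log2 value of at least 9, a list added after the values were seen, 8.63% were called, 7.08% higher, and the median was 0.12. Of these 1031 genes, 252 had every value of controls 5 to 7 above every value of controls 1 to 4, and 80 had every value below.

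**Figure D1:**
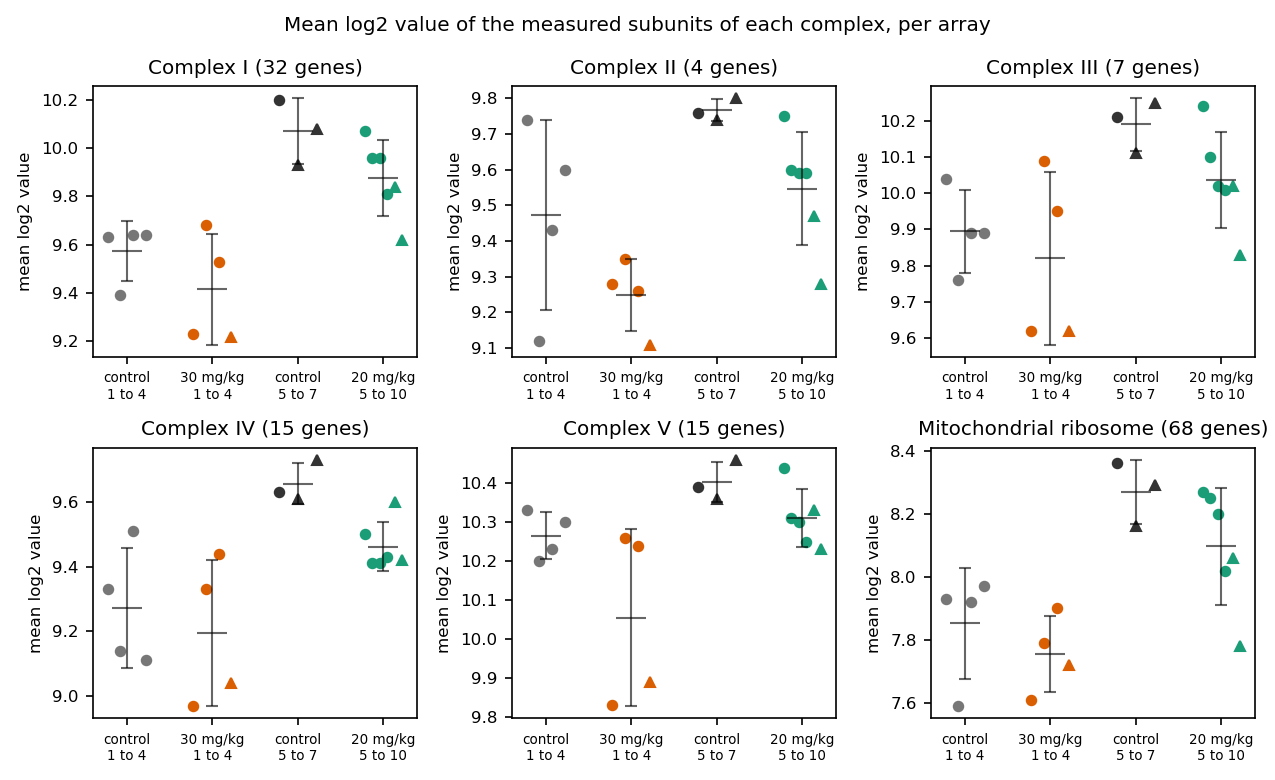
Mean log2 value of the measured subunits of complexes I to V, and of 68 mitochondrial ribosomal proteins, on each of the 17 arrays (vertical axis) by group (horizontal axis). Circles are females, triangles are males, and lines give the mean ± SD of a group. Complex I lay between 9.39 and 9.64 in controls 1 to 4 and between 9.93 and 10.20 in controls 5 to 7.

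Complex I held most of the difference. All 32 of its members were higher in controls 5 to 7, with a median of 0.64, and 10 of them passed. The 26 accessory subunits had a median of 0.68 and held all 10 calls, while the 6 core subunits, among them those that carry the flavin and the iron-sulfur clusters, had a median of 0.54 and 0 calls. The difference between core and accessory subunits was not tested. The array means of complex I were 9.39 to 9.64 in controls 1 to 4 and 9.93 to 10.20 in controls 5 to 7. Complex II had a median of 0.45 with 0 of 4 called, complex III 0.33 with 1 of 7, complex IV 0.24 with 3 of 15, and complex V 0.23 with 1 of 15. The complexes thus stood in the order I, II, III, IV and V by their medians, without a test of that order.

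Ndufb7, an accessory subunit of the membrane arm of complex I, had log2 values of 9.23, 8.84, 9.83 and 8.89 in controls 1 to 4 and of 10.77, 10.1 and 10.34 in controls 5 to 7. All 3 of the latter lay above all 4 of the former. The means were 9.20 ± 0.46 (SD, n = 4) and 10.40 ± 0.34 (SD, n = 3), and the difference with sex in the fit was 1.58 ± 0.24, or 3.0-fold (adjusted p = 0.0067 in limma). In treated samples Ndufb7 was 8.95, 9.52, 9.61 and 8.55 at 30 mg/kg, and 9.66 at the lowest, 10.15 at the median and 10.36 at the highest at 20 mg/kg. These groups did not overlap either, and there dose and number set cannot be told apart.

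Other accessory subunits of complex I behaved alike between the control sets. Ndufa2 was higher by 1.06 ± 0.19 (adjusted p = 0.012 in limma), and Ndufb3 by 0.93 ± 0.24 (adjusted p = 0.047). Ndufa6, an LYR-motif protein that holds the mitochondrial acyl carrier protein, was higher by 0.88 ± 0.17 (adjusted p = 0.016). Its values were 9.38, 9.93, 9.79 and 9.97 in controls 1 to 4 and 10.81, 10.24 and 10.51 in controls 5 to 7, with no overlap. Ndufv3, of the module that takes electrons from NADH, was higher by 0.83 ± 0.15 (adjusted p = 0.012), Ndufa8 by 0.77 ± 0.18 (adjusted p = 0.031), Ndufa1 by 0.72 ± 0.16 (adjusted p = 0.025) and Ndufb10 by 0.70 ± 0.14 (adjusted p = 0.019). In the limma fit of single probe sets, a further probe set of Ndufv3 stood at 0.81 ± 0.24 and did not pass (adjusted p = 0.07). Those of Uqcrb, Cycs and Ndufs6-ps1 passed, and so did that of Atp5mk, a member not called here. The remaining called members of complex I were Ndufb9 and Ndufc2, at 0.63 and 0.58. Among core subunits, Ndufs3 came nearest, at 0.80 ± 0.22 (adjusted p = 0.054), while Ndufs1, the largest iron-sulfur subunit, was at 0.54 ± 0.23 and Ndufv1, which binds NADH, at 0.53 ± 0.30. Ndufb4 stood at 0.06 ± 0.19. The pseudogene symbol Ndufs6-ps1 had the smallest adjusted p of all members (1.17 ± 0.16, adjusted p = 0.0032); whether its probes also bind the transcript of Ndufs6, which is not among the members, was not tested.

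In complex II, the 4 subunits of succinate dehydrogenase differed by 0.61 ± 0.18 (Sdhb, the iron-sulfur subunit, adjusted p = 0.073), 0.48 ± 0.15 (Sdhd, a membrane anchor, adjusted p = 0.083), 0.43 ± 0.21 (Sdha, the flavoprotein, adjusted p = 0.24) and 0.10 ± 0.20 (Sdhc, the other anchor, adjusted p = 0.81). None passed in limma, and the adjusted p-values of the first pair lay close above the threshold. In complex III, Uqcrb, a small subunit near a ubiquinone site, was the called member. Its values were 10.26, 9.81, 9.89 and 10.19 in controls 1 to 4 and 11.14, 10.73 and 10.99 in controls 5 to 7, a fitted difference of 1.04 ± 0.15 (adjusted p = 0.0059). The core proteins Uqcrc1 and Uqcrc2 stood at 0.12 ± 0.17 and 0.03 ± 0.20, and the Rieske protein Uqcrfs1 at 0.55 ± 0.16 (adjusted p = 0.071).

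Cycs, the electron carrier between complexes III and IV, was 8.72, 8.72, 8.77 and 9.02 in controls 1 to 4 and 9.41, 9.59 and 9.65 in controls 5 to 7 (0.63 ± 0.16, adjusted p = 0.039 in limma). Cox4i1, the ubiquitous form of the largest nuclear subunit of complex IV, was 11.02, 11.02, 11 and 10.9 against 11.35, 11.55 and 11.53 (0.49 ± 0.13, adjusted p = 0.046). Neither gene overlapped between the control sets. Cox6c and Cox5b, both nuclear subunits of complex IV, each differed by 0.70, and Atp5pf of the stalk of ATP synthase by 0.66. In contrast, Cox8a, Uqcrc2, Atp5f1a and Atp5po had differences between −0.00 and 0.09 with standard errors of 0.16 to 0.25. The lowest value was that of Atp5mc2, one of several genes for the same ring subunit of ATP synthase, at −0.87 ± 0.26 (adjusted p = 0.074). Atp5mc1 and Atp5mc3 for that same subunit stood at 0.08 ± 0.23 and 0.25 ± 0.16. Cox5b, Cox6c, Atp5pf, Atp5po, Uqcrc2, Ndufb9, Ndufa10, Cox8c, Atp5mc3 and Atp5pb are named here after their values were seen.

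**Figure D2:**
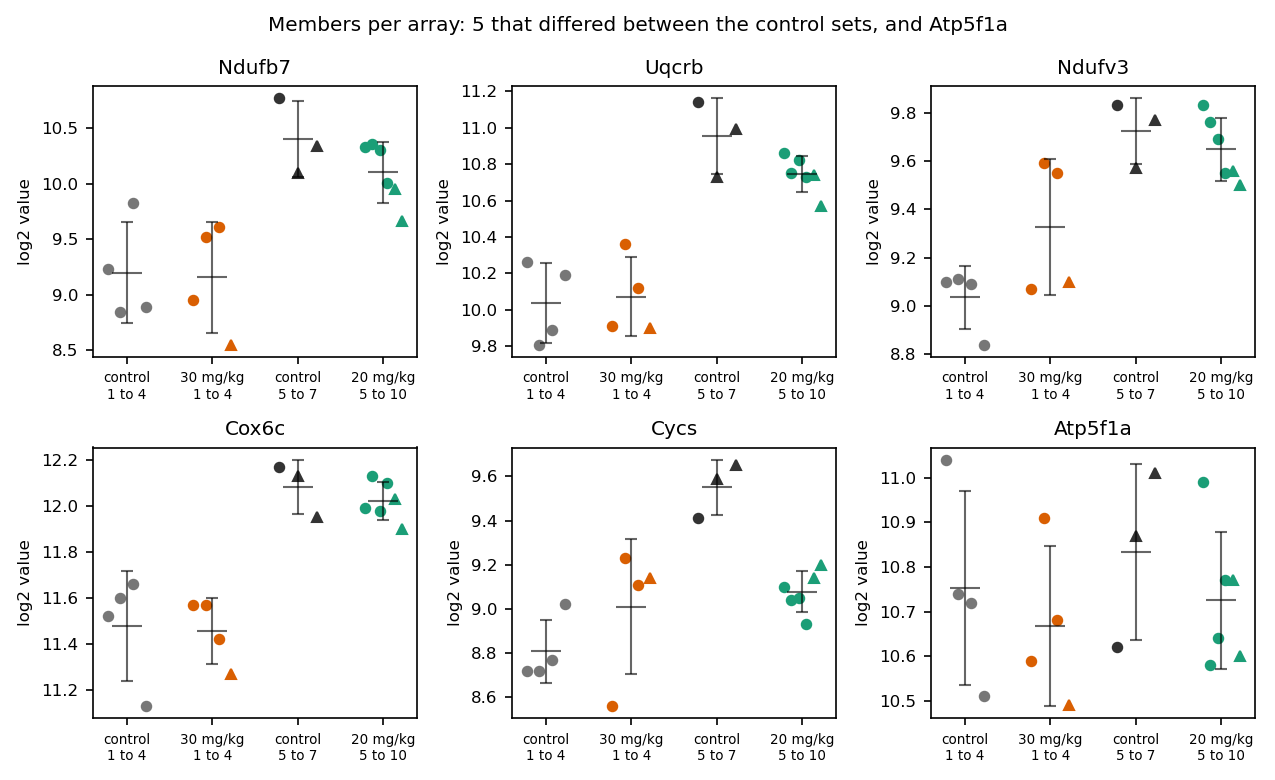
Log2 value on each array (vertical axis) of 5 members that differed between the control sets and of Atp5f1a, which did not pass, by group (horizontal axis). Circles are females, triangles males, lines the mean ± SD. In the first 5 panels the 3 controls numbered 5 to 7 lie above the 4 controls numbered 1 to 4.

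The count depended on control 5, the only female of controls 5 to 7: without it 1 member was called (median difference 0.51). Without control 6 or 7 it was 9, without control 2 or replicate 10 of the 20 mg/kg group 10, and without replicate 1 of the 30 mg/kg group 26. Among females alone, where the comparison is of 4 arrays with 1, the median was 0.46 with 66 of 81 higher and 0 called. After quantile normalization, which removes the difference in the spread of the arrays, 12 were called, 11 higher and 1 lower, with a median of 0.40. Adrenal cortex markers had array means of 11.08 to 11.82 in controls 1 to 4 and 10.85 to 11.13 in controls 5 to 7, and chromaffin markers 10.38 to 10.83 and 10.32 to 10.99. No gene of either list passed in this comparison, and the part of tissue make-up, sex or array spread in the difference was not tested. In such bulk samples fewer cells of a type and less RNA per cell cannot be told apart.

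Treated samples of the number sets differed in like manner. Between 30 and 20 mg/kg, where dose and number set cannot be told apart, 17 members were called, all lower at 30 mg/kg, beside 12.1% of all genes tested (8.16% lower) and 20.9% lower among the genes with a mean of at least 9. The share of 21.0% was therefore above that of all genes and near that of the strong signals. The median was −0.28, with −0.42 for complex I (31 of 32 lower, 8 called), −0.32 for complex II, −0.20 for complex III, −0.05 for complex IV and −0.24 for complex V. In 22 members every 30 mg/kg value lay below every 20 mg/kg value, against 7.42% of all genes and 220 of the 1031 genes with a mean of at least 9. Ndufa6 was 9.43, 9.45, 9.70 and 9.35 at 30 mg/kg, and 10.33, 10.46 and 10.73 at the lowest, median and highest at 20 mg/kg (−1.02 ± 0.21, adjusted p = 0.0079). Atp5mk (−1.06 ± 0.22, adjusted p = 0.0091), Ndufb3 (−0.92 ± 0.25, adjusted p = 0.026), Ndufa9 (−0.74 ± 0.21, adjusted p = 0.034) and Cox4i2 (−1.98 ± 0.61, adjusted p = 0.044) were also lower. After quantile normalization 9 members were called. Without replicate 4 of the 30 mg/kg group it was 0, with a median of −0.23, and without replicate 6, 7 or 8 of the 20 mg/kg group 7 or 8 were. Markers of tissue components moved with this comparison. Of 8 chromaffin genes 3 were called lower at 30 mg/kg, with array means of 9.72 to 10.57 against 10.42 to 11.28 at 20 mg/kg. Of 9 adrenal cortex genes 7 were higher and 2 called, with array means of 10.90 to 11.65 against 10.46 to 11.15. All 4 brown adipocyte genes were higher, 2 of them called, with array means of 4.32 to 6.41 against 4.0 to 4.48, and all 6 endothelial genes were higher, 1 of them called, at 7.81 to 7.90 against 7.11 to 7.78. Of 6 fibroblast genes 3 were higher and 3 lower, with 2 called higher. The part of these markers in the member differences was not tested.

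The samples of this comparison and those of the control sets share no array. Each comparison was, however, fitted on all 17 arrays, with the sex term and the spread taken over all groups. These comparisons are therefore not separate estimates. Of the 17 members called in each, 10 were common to both lists, 58.8% of each: Atp5pf, Cox4i1, Cox6c, Ndufa1, Ndufa6, Ndufa8, Ndufb10, Ndufb3, Ndufc2 and Ndufs6-ps1. Over all genes, 163 were common, 41.9% of the 389 higher in controls 5 to 7 and 13.8% of the 1183 lower at 30 than at 20 mg/kg. In the higher-numbered set 66 of 81 members were higher in both comparisons (81.5%), against 33.3% of all genes. Across the 81 members the differences correlated with Pearson's r = 0.63 and Spearman's rho = 0.73. Across all genes the values were 0.63 and 0.61, so the relation was not particular to these genes. They share arrays within each comparison and are not independent replicates.

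**Figure D3:**
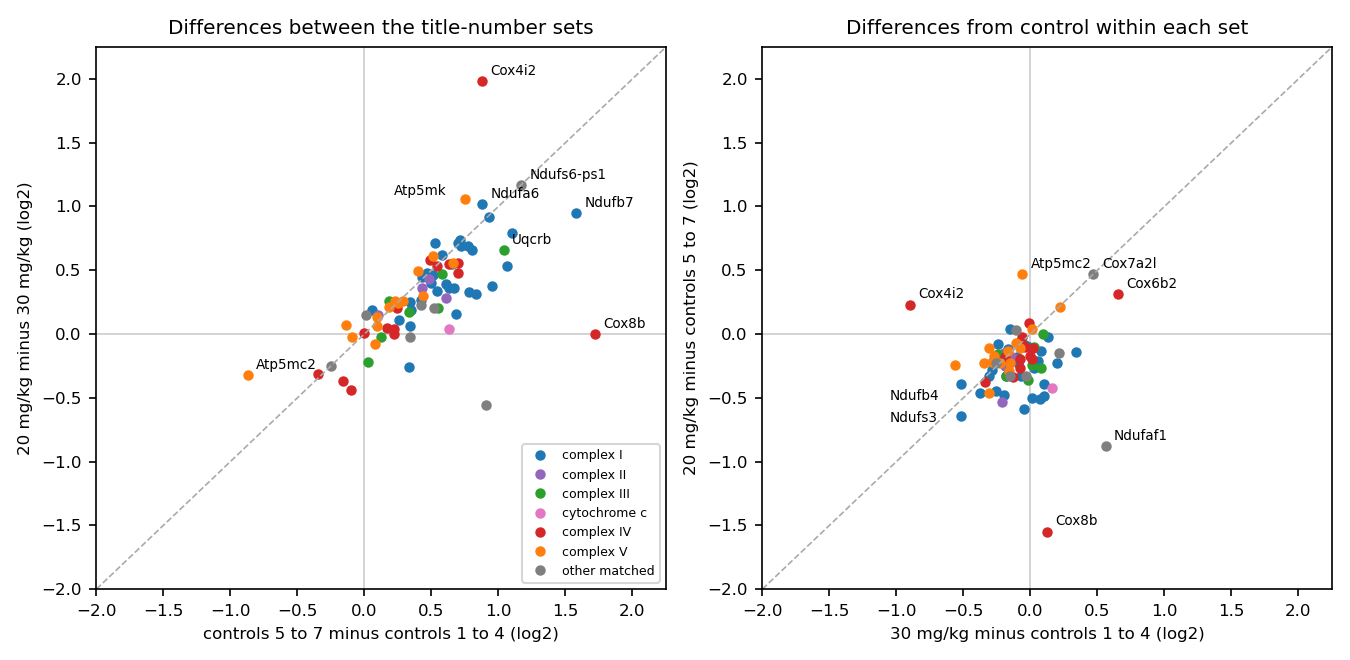
Log2 differences of the 81 members, one point each, coloured by complex; the dashed line marks equal values. Left, controls 5 to 7 minus controls 1 to 4 (horizontal) against 20 minus 30 mg/kg (vertical), where 66 of 81 points are above 0 on both axes; right, treated minus control in the lower-numbered set (horizontal) and in the higher-numbered set (vertical), where 51 of 81 are below 0 on both and Cox7a2l is at 0.47 on both.

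Within the sets, differences between treated samples and controls were smaller. In the lower-numbered set, 1 of 81 members (1.23%) was called at 30 mg/kg, beside 3.01% of all genes tested (1.5% higher). The median was −0.09, with 56 lower, and all 6 core subunits of complex I were lower (median −0.22). Complex V had a median of −0.17 with 13 of 15 lower, complex II −0.19 with 4 of 4 lower, and complex III 0.01. At an unadjusted p under 0.05 there were 10 members, 2 higher and 8 lower. In the higher-numbered set, 0 of 81 members were called at 20 mg/kg in limma, beside 0.358% of all genes tested, with 21 members at an unadjusted p under 0.05, 1 higher and 20 lower. The median was −0.20, with 72 of 81 lower: 31 of 32 in complex I, 4 of 4 in complex II, 7 of 7 in complex III, 12 of 15 in complex IV and 12 of 15 in complex V.

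The sets share no array, but their differences were fitted together, with the sex term and the spread taken over all 17 arrays. They are therefore not separate estimates. In this fit 51 of 81 members (63.0%) were lower after treatment in both sets, against 28.2% of all genes and 33.9% of those with a mean of at least 9. In contrast, 4 members (4.9%) were higher in both, against 30.5% of all genes. By complex, 21 of 32 members of complex I, 4 of 4 of complex II, 3 of 7 of complex III, 8 of 15 of complex IV and 12 of 15 of complex V were lower in both. These shares count directions, not calls. The difference of the within-set changes was tested for each gene, and 0 members and 0 of all genes (0.0%) passed in limma, with 4 members at an unadjusted p under 0.05, so no difference in response between the sets was shown.

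Cox7a2l was the member called within the lower-numbered set, and it was higher after treatment in both. Its values were 10.17, 10.01, 10.28 and 9.81 in controls 1 to 4 and 10.50, 10.37, 10.57 and 10.75 at 30 mg/kg. In the other set they were 9.91, 9.83 and 9.76 in controls 5 to 7 and 10.20, 10.28 and 10.42 at the lowest, median and highest at 20 mg/kg. In each set all treated samples lay above all controls, which was so for 3.46% and 3.22% of all genes. The change was 0.47 ± 0.12, or 1.39-fold, at 30 mg/kg (adjusted p = 0.046 in limma) and 0.47 ± 0.12, or 1.38-fold, at 20 mg/kg (adjusted p = 0.15). The call at 30 mg/kg lay close to the threshold: among females alone the change was 0.41 (adjusted p = 0.19), without control 4 it was 0.39 (adjusted p = 0.10), and with median centring 0.49 (adjusted p = 0.054). Between the control sets Cox7a2l stood at −0.25 ± 0.14, opposite in sign to most members.

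Among subunits lower in both sets, Ndufs3 had among the largest differences of complex I in each. Its values were 9.28, 8.60, 9.27 and 9.49 in controls 1 to 4 and 8.56, 8.90, 8.45 and 8.26 at 30 mg/kg (−0.52 ± 0.18, adjusted p = 0.14 in limma). In controls 5 to 7 they were 9.99, 9.48 and 9.63, and at 20 mg/kg 8.82, 9.18 and 9.68 at the lowest, median and highest (−0.64 ± 0.19, adjusted p = 0.22). The groups overlapped in both sets, and neither difference passed. Without control 2, which had the lowest control value, the difference at 30 mg/kg was −0.70 (adjusted p = 0.033). That was 1 of only 2 rechecks, out of 1226 of single member results, in which an uncalled value gained the threshold. Ndufb4 differed by −0.52 ± 0.16 (adjusted p = 0.084) at 30 mg/kg and −0.39 ± 0.16 (adjusted p = 0.43) at 20 mg/kg.

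**Figure D4:**
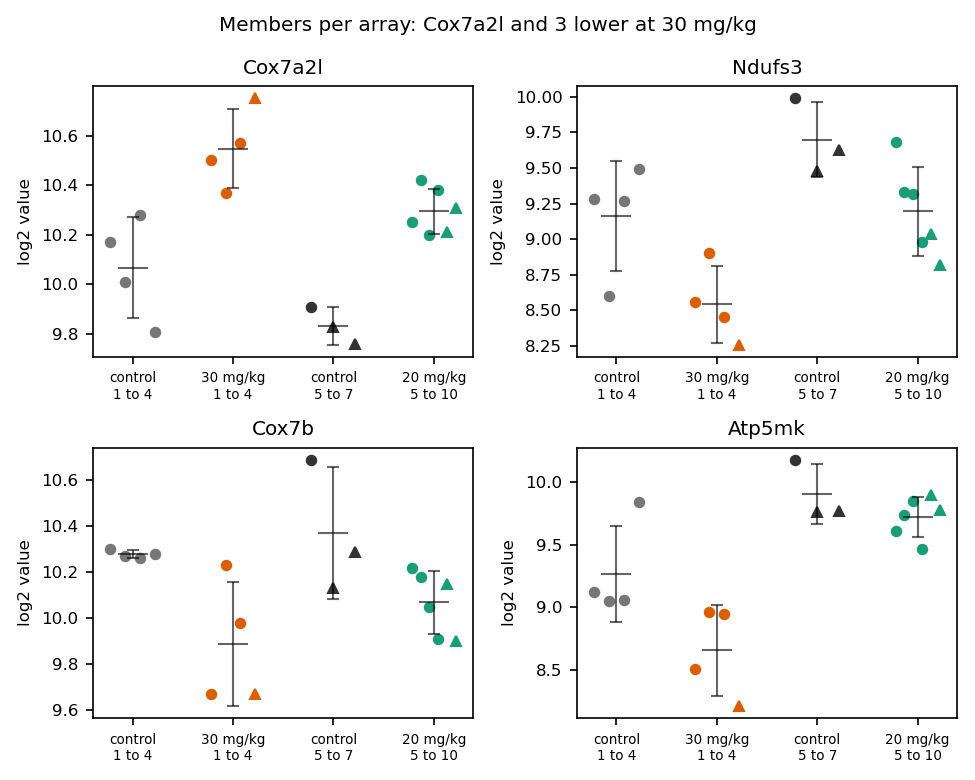
Log2 value on each array (vertical axis) of Cox7a2l, Ndufs3, Cox7b and Atp5mk by group (horizontal axis). Circles are females, triangles males, lines the mean ± SD; the treated samples of Cox7a2l lie above the controls of the same number set, and those of Atp5mk at 30 mg/kg lie between 8.21 and 8.96, below all controls.

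In the lower-numbered set 4 of 81 members had every 30 mg/kg value below every control value, a share little above the 3.52% of all genes. They were Atp5mk, Cox7b, Atp5pb and Atp5if1. Atp5mk was 9.12, 9.05, 9.06 and 9.84 in controls 1 to 4 and 8.51, 8.96, 8.95 and 8.21 at 30 mg/kg (−0.56 ± 0.20, adjusted p = 0.13 in limma). Cox7b was 10.30, 10.27, 10.26 and 10.28 in these controls and 9.67, 10.23, 9.98 and 9.67 at 30 mg/kg (−0.34 ± 0.13, adjusted p = 0.18). Neither passed within the set, although both were called against all controls, where controls 5 to 7 also enter. In the higher-numbered set 4 of 81 members lay wholly below the controls, again a share little above that of all genes (2.9%). They were Cycs, Ndufa1, Ndufaf1 and Ndufaf4. Cycs was 9.41, 9.59 and 9.65 in controls 5 to 7 and 8.93, 9.07 and 9.20 at the lowest, median and highest at 20 mg/kg (−0.42 ± 0.13, adjusted p = 0.28). At 30 mg/kg it stood at 0.16 above controls 1 to 4, and the difference of the changes, −0.58, did not pass (adjusted p = 0.64).

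The succinate dehydrogenase subunits were lower after treatment in both sets without passing. Sdhb was 10.23, 9.49, 9.75 and 10.09 in controls 1 to 4 and 9.52, 9.80, 9.65 and 9.35 at 30 mg/kg (−0.21 ± 0.15). In controls 5 to 7 it was 10.49, 10.07 and 10.17, and at 20 mg/kg 9.40, 9.85 and 10.12 at the lowest, median and highest (−0.53 ± 0.15, adjusted p = 0.21 in limma). The groups overlapped in each set. The differences at 30 and 20 mg/kg were −0.19 and −0.25 for Sdha, −0.20 and −0.15 for Sdhc, and −0.14 and −0.18 for Sdhd, with standard errors of 0.12 to 0.18.

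Other tissue markers also differed between treated and control samples of the lower-numbered set. Of 8 chromaffin genes 3 were higher and 5 lower at 30 mg/kg, with a median of −0.19, and 2 were called: Ddc and Hand2, a decarboxylase of catecholamine synthesis and a transcription factor, fell by 1.82 ± 0.36 (adjusted p = 0.014 in limma) and 1.61 ± 0.29 (adjusted p = 0.0092). Th, the rate-limiting enzyme of that synthesis, stood at 0.24 ± 0.14 (adjusted p = 0.41). Of 6 fibroblast genes 1 was higher and 5 lower: the growth factor receptor Pdgfra rose by 1.29 ± 0.29 (adjusted p = 0.025) and the collagen Col3a1 fell by 0.68 ± 0.16 (adjusted p = 0.036). The erythroid gene Hbb fell by 3.59 ± 0.60 (adjusted p = 0.0068). Array means of the 8 chromaffin genes were 10.38 to 10.83 in controls 1 to 4 and 9.72 to 10.57 at 30 mg/kg, those of 6 endothelial genes 7.23 to 7.74 and 7.81 to 7.90, and those of 4 brown adipocyte genes 4.46 to 5.04 and 4.32 to 6.41. The part of these shifts in the member differences was not tested.

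The tissue-specific isoforms Cox4i2 and Cox8b of complex IV spread widely between samples. Cox4i2, an alternative form of subunit 4 known to be induced by low oxygen, was 11 and 11.01 in the male controls and 11.70 and 11.26 in the males at 20 mg/kg. The male at 30 mg/kg had 7.98, and the 12 females lay between 5.25 and 9.08. After this was seen, males and females were compared over all groups, and Cox4i2 was the member called, higher in males by 2.82 ± 0.56 (adjusted p = 0.0498 in limma), beside 0.262% of all genes tested (0.172% higher). The call was lost without control 1, 4, 5, 6 or 7, replicate 1 or 2 of the 30 mg/kg group or any replicate of the 20 mg/kg group, with adjusted p of 0.05 to 0.21. Males and number set are partly tied, since 4 of the 5 males are in the higher-numbered set and these are the 4 high values. Over the 81 members 67 were lower in males and 17.3% higher, with a median of −0.16. Of all genes 50.3% were higher in males, and of those with a mean of at least 9 the share was 61.5%. The part of number set in this was not tested.

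Cox8b, the heart, muscle and brown fat form of subunit 8, was 8.49, 8.07, 8.89 and 3.71 in controls 1 to 4 and 6.27, 9.66, 7.94 and 4.17 at 30 mg/kg. It was 8.01, 7.50 and 8.28 in controls 5 to 7 and 5.80, 6.99 and 7.95 at the lowest, median and highest at 20 mg/kg. Control 4 and replicate 4 of the 30 mg/kg group were thus the low samples, and no comparison passed (0.12 ± 0.99 at 30 mg/kg and −1.55 ± 1.0 at 20 mg/kg within the sets). The ubiquitous Cox8a ranged from 11 to 11.69 over all 17 arrays. Cox6a2, the muscle form of subunit 6A, lay between 4.33 and 5.58, in the lower part of the signal range. Its differences within the sets were −0.13 ± 0.18 and −0.34 ± 0.19.

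**Figure D5:**
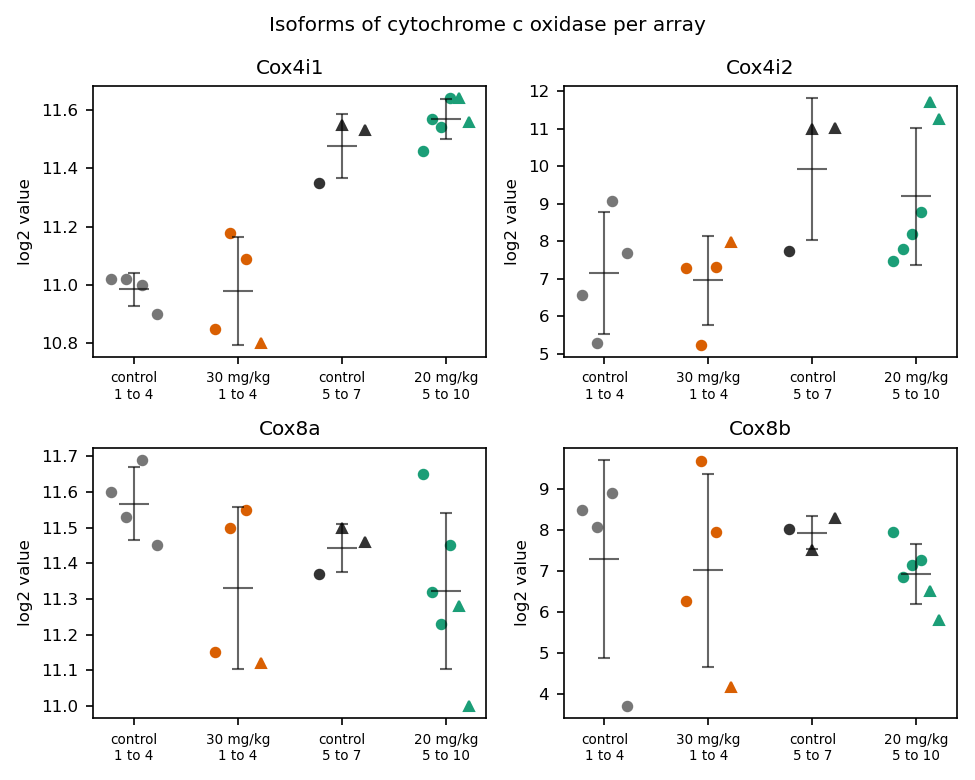
Log2 value on each array (vertical axis, a different scale in each panel) of isoforms of subunits 4 and 8 of cytochrome c oxidase by group (horizontal axis). Circles are females, triangles males, lines the mean ± SD; the 4 Cox4i2 values at 11 or above are all males, and the low Cox8b values, 3.71 and 4.17, are control 4 and replicate 4 of the 30 mg/kg group.

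Other mitochondrial genes were read from lists beside the members, to be read against the 3.61% of all genes called between the control sets (2.68% higher in controls 5 to 7). Of 68 mitochondrial ribosomal proteins, which build the ribosome that translates the mitochondrial genome, 13 (19.1%) were higher in controls 5 to 7 than in controls 1 to 4 and 0 were called lower, with a median of 0.68. Within the sets 0 passed, with medians of −0.04 at 30 mg/kg and −0.24 at 20 mg/kg. Of 18 assembly factors of complexes II to V, 2 were higher in controls 5 to 7, Surf1 (0.88 ± 0.14, adjusted p = 0.007 in limma) and the copper chaperone Cox17 (0.84 ± 0.22, adjusted p = 0.044). Of 18 proteins of electron entry and inner membrane transport, 3 were higher: Coq7 of ubiquinone synthesis (1.31 ± 0.31, adjusted p = 0.032), Etfb of the electron transfer flavoprotein (1.16 ± 0.20, adjusted p = 0.0096) and the phosphate carrier Slc25a3 (0.61 ± 0.15, adjusted p = 0.034). Of 13 enzymes of the tricarboxylic acid cycle, Suclg1 passed (0.65 ± 0.16, adjusted p = 0.034), whereas Cs, citrate synthase, stood at −0.16 ± 0.15. Cytosolic ribosomal proteins, a list of 71 added after the values were seen, had a median of 0.14 and 2 called higher, a share of 2.82% that is near that of all genes.

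Of 16 regulators of mitochondrial biogenesis, 0 passed between the control sets in limma. Ppargc1a, the coactivator PGC-1alpha, stood at 0.48 ± 0.37 and Tfam, the mitochondrial transcription factor, at 0.19 ± 0.22. At 30 mg/kg within the lower-numbered set Polg, the mitochondrial DNA polymerase, rose by 0.53 ± 0.13 (adjusted p = 0.042), and 13 of the 16 were higher with a median of 0.25. In the higher-numbered set 10 were higher, with a median of 0.07 and 0 called. Cytosolic ribosomal proteins were higher after treatment in both sets in 55 of 71 genes (77.5%), where 51 of the 81 members were lower in both.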

How the data were processed

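The deposited log2 values of 17 Affymetrix arrays were used as they stand. They were made by the authors with RMA in Affymetrix Expression Console 1.3.0.187, per the submitters' processing notes. Of 29214 probe sets, 15310 had 1 symbol in the platform annotation, 323 had several and 13581 are unnamed here; the highest-mean probe set per symbol gave 14506 genes. Of the members, 12 had several probe sets, 94 in all, and 1 probe set with several symbols was left out. All 17 arrays entered limma 3.58.1 in R 4.3.3 (lmFit, eBayes), with group and sex, once with all controls as 1 group and once with controls 1 to 4 and 5 to 7 apart. The p-values were adjusted over all genes at 0.05. The 15310 probe sets with 1 symbol were also fitted singly, with p-values adjusted over these probe sets. The code was tested on simulated data. The number of arrays limits the precision. No arrays were identical, with a highest correlation of 0.993. The genes named were those called where 10 or fewer passed in a comparison, otherwise the 10 with the largest change, the largest 2 per complex within each set, and a fixed set of subunits. Members and lists were chosen with earlier results of these data known. The alternatives, in the closing section, covered normalization, filters, variances, sex, the replicate block and leaving out each array.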

Additional observations from a re-analysis of the deposited data

Results flagged for a closer look

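Among 45 named members, 135 groups of 4 to 7 samples were tested for a sample that stands apart from the rest of its group (Dixon's test at the 95% level), and 6 were flagged. Chance flags about 1 in 20 groups. In Cox8b, control 4 had a log2 value of 3.71, while the next lowest control had 7.50. In Uqcrc1, replicate 2 of the 30 mg/kg group had 9.32, with the next at 8.99. In Cox7b, control 5 had 10.69, with the next at 10.30. At 20 mg/kg, replicate 5 was highest in Cox5a (11.11, next 10.88) and lowest in Cox6a2 (4.33, next 4.69). Replicate 6 of that group was highest in Ndufb10 (10.55, next 10.34).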

How the results depend on the processing

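The number of arrays per group, 3 to 7, limits every count. Members called at 30 mg/kg against all controls were 8, 0 among females alone and 1 to 14 when an array was left out. Within the lower-numbered set the 1 call became 0 among females alone and with median centring, and 0 to 2 on leaving out an array. Between 30 and 20 mg/kg the 17 calls became 2 among females alone, 9 after quantile normalization and 0 to 23 on leaving out an array. Between the control sets the 17 became 0 among females alone, 31 with median centring and 1 to 26 on leaving out an array. For males against females the 1 became 0 after quantile normalization, 0 with trended and robust variances, and 0 to 1 on leaving out an array. Counts at 20 mg/kg and of the difference of changes were 0 under every alternative run. Of 1226 rechecks of 50 single member results, 1062 kept their side of the threshold, 162 kept direction and lost the threshold, 2 gained it and 0 of the called values reversed; 2 values that were not called changed sign. The causes were not tested.

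The replicate block used the title numbers shared by controls and treated samples. Deviations from the group mean correlated at −0.286 to 0.23 between same-numbered samples, and at −0.432 to 0.4 between other controls and treated samples of a set. The check gives no evidence of pairing. It cannot exclude pairing either, since the pairs are few and sex was not a term. With the block, members called were 0 at 30 mg/kg, against all controls and within the lower-numbered set alike. These are not separate results, since samples at 30 mg/kg share numbers only with controls of that set. The control sets share no number with each other, nor do the doses, so the block gives no recheck of the counts between them. No count with the block is given for males against females. The change of Cox7a2l at 30 mg/kg was 0.42 with the block (adjusted p = 0.29 in limma).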
